A study of Rattus norvegicus with 32 samples.

Results

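Odorant receptors are the G protein-coupled receptors with which olfactory sensory neurons of the nasal mucosa detect odorants. They form one of the largest gene families of rodents, each mature sensory neuron is thought to express a single receptor gene, and the receptors are zoned across the mucosa. The neurons sit among sustentacular (supporting) cells and mucus-secreting glands, and their axons run to the olfactory bulb. Rat receptor genes carry either the older symbols Olr or the newer symbols Or. The probe sets described here had a single gene symbol of the Olr form and reached an intensity of 20 (4.32 on the log2 scale) on at least 1 of the 24 arrays of hippocampus, striatum, olfactory bulbs and pituitary gland. There were 11 such probe sets for 10 genes, out of 74 Olr probe sets (68 symbols) and 36685 probe sets in all. Olr1428 had 2 probe sets.

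The samples came from adult female rats of strain DA/SD that were wild type at Csf1r (+/+, here WT), heterozygous (+/-, HET) or homozygous mutant (-/-, KO), with 2 rats per genotype and no perfusion. Csf1r encodes the CSF1 receptor of macrophages and microglia. The mutation places an EGFP-PGK-Neo cassette in the first coding exon, and the colony came from 1 targeted clone of Dark Agouti embryonic stem cells with Sprague-Dawley embryo donors. Spleens of the same design gave 6 arrays, and 2 further arrays held bone marrow-derived macrophages (BMDM) of adult male DA rats that were +/+ at Csf1r. The BMDM had been grown in culture with recombinant human CSF1. Nothing in the labels ties a numbered sample to an animal, so p-values measure the spread between the samples given.

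Csf1r lay between 7.63 and 9.12 (log2 intensity) on the 8 WT arrays of the 4 tissues and between 2.73 and 3.96 on the 8 KO arrays. The tissue labels did not all fit their markers. The 6 arrays titled Olfactory bulbs had a mean of 10.45 to 10.91 over 7 anterior pituitary hormone genes, against 4.03 to 5.24 on those titled Pituitary gland, whereas 7 genes of bulb neurons averaged 4.92 to 5.41 and 9.40 to 9.60. The description field of both sets names another tissue, and titles are kept below. On the spleen side, Prss16, a thymus protease, stood at 10.47 and 10.76 in the spleens HET 2 and KO 2, and no other spleen array exceeded 2.98. The spleen and BMDM arrays had been normalized apart from the other 24, so levels are not set across the sets.

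Among the arrays titled Pituitary gland, genes of olfactory mucosa were present on KO 2, HET 1 and HET 2. Cyp2g1, a cytochrome P450 of olfactory sustentacular cells and glands, read 2.96 and 2.73 on WT 1 and WT 2, 10.07 and 7.86 on HET 1 and HET 2, and 2.69 and 11.10 on KO 1 and KO 2. The same 3 arrays were high for Bpifb3, a secreted protein of the BPI fold family, with values of 8.77 (HET 1), 4.62 (HET 2) and 10.36 (KO 2), while WT 1, WT 2 and KO 1 lay between 3.27 and 3.45. Over the lists, 5 of 5 measured sustentacular genes lay more than 1 log2 unit above both WT arrays on KO 2, 3 on HET 1, 2 on HET 2 and 0 on KO 1. For the gland and odorant-binding list the counts were 4, 3, 2 and 0 of 7. The odorant-binding genes Obp1f, Obp2a and Obp3 were not among them, at 2.61, 2.66 and 2.39 on KO 2. Of 4 measured genes of motile cilia of respiratory epithelium, 1 passed on KO 2 (Rsph4a at 5.64) and 0 on HET 1, HET 2 and KO 1. Over all 14824 single-symbol probe sets the same step was passed by 2.00% on KO 2, 0.553% on HET 1, 0.411% on HET 2 and 0.236% on KO 1. These values are a description, because the receptors were chosen on the same arrays.

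The 11 receptor probe sets were highest on different arrays. Of the 11 probe sets, 5 had their highest value of the 24 arrays on Pituitary gland KO 2, 4 on a hippocampus array and 2 on a striatum array. KO 2 held 7 of the 11 at an intensity of 20 or more, HET 1 and HET 2 held 2 each, and WT 1, WT 2 and KO 1 held 1 each. No probe set of the 11 exceeded both WT arrays by more than 1 log2 unit on HET 1, HET 2 or KO 1, and 4 did so on KO 2. The median over the 11 was 2.63 and 2.97 on WT 1 and WT 2, and 3.15 and 3.86 on HET 1 and HET 2. It was 2.86 and 4.44 on KO 1 and KO 2. The rule used the level on these arrays, so this median and the KO 2 counts were in part fixed by it. Over all 74 Olr probe sets the median was 2.08 and 2.12 on WT 1 and WT 2. It was 2.11 and 2.14 on HET 1 and HET 2, and 1.96 and 2.24 on KO 1 and KO 2. The median of all single-symbol probe sets kept between 5.51 and 5.57. By the step of 1 log2 unit, mucosa genes and receptors were high together for 3 genes on KO 2 (Olr1428, Olr655 and, at the threshold, Olr1090). On HET 1 this held for none of the 11 probe sets. In such bulk samples fewer cells of a type and less RNA per cell cannot be told apart.

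**Figure D1:**
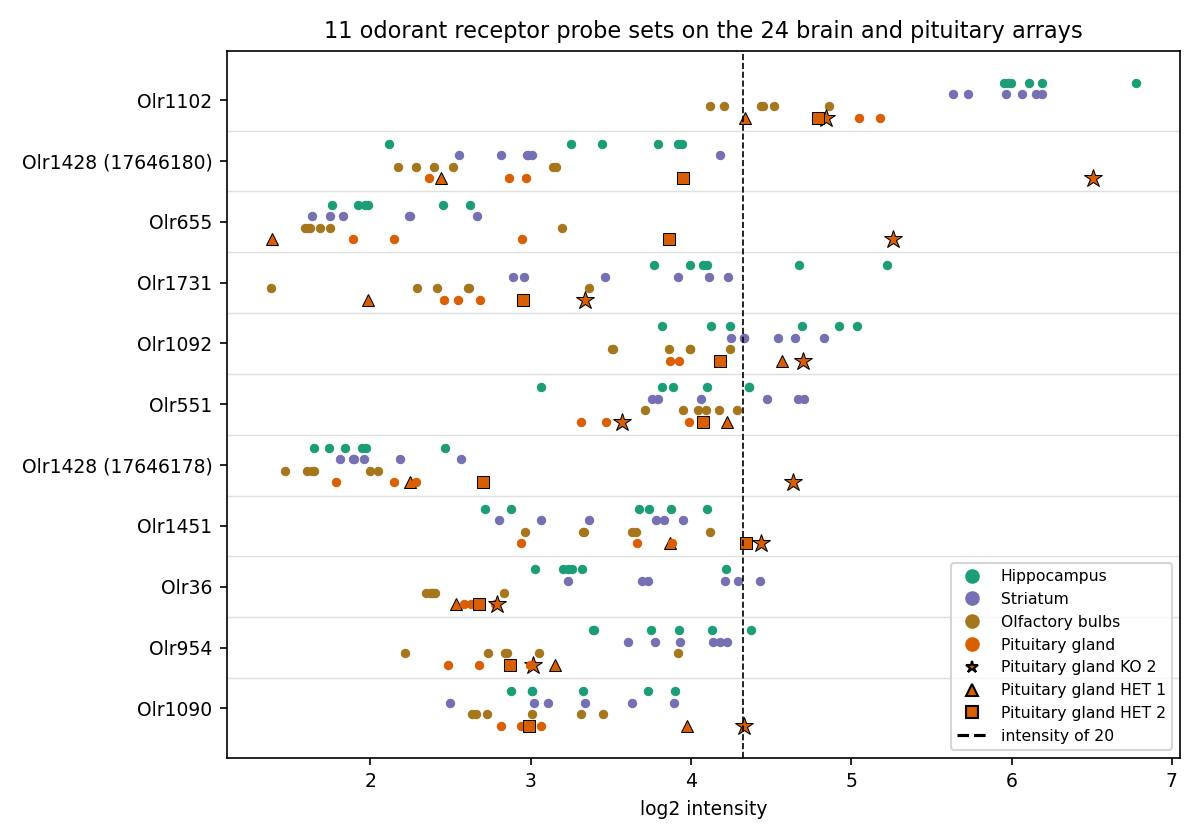
Log2 intensity (x axis) of the 11 odorant receptor probe sets (rows, ordered by their highest value) on the 24 brain and pituitary arrays, coloured by tissue title, with the Pituitary gland arrays KO 2, HET 1 and HET 2 as star, triangle and square and the intensity of 20 as a dashed line. Olr1428 and Olr655 stood apart on KO 2, and Olr1102 was highest in hippocampus and striatum.

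Among the 11 probe sets, one of Olr1428 was the farthest above both WT arrays on KO 2. Probe set 17646180 read 2.37 and 2.97 on WT 1 and WT 2, 2.44 and 3.95 on HET 1 and HET 2, and 2.86 and 6.51 on KO 1 and KO 2. Probe set 17646178 of the same gene read 2.29 and 2.15 on WT, 2.25 and 2.70 on HET, and 1.79 and 4.63 on KO. On both, KO 2 was the highest array and HET 2 the next, whereas HET 1 and KO 1 lay among the WT arrays or below them, and the 2 KO arrays did not move together. On KO 2 probe set 17646180 was at or above 74.0% of all probe sets on the array. In the other tissues the same probe set ranged from 2.12 to 3.95 in hippocampus, 2.55 to 4.18 in striatum and 2.17 to 3.16 on the arrays titled Olfactory bulbs.

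Olr655 was likewise highest on KO 2 and next on HET 2. Its values were 1.89 and 2.94 on WT 1 and WT 2, 1.39 and 3.86 on HET 1 and HET 2, and 2.15 and 5.26 on KO 1 and KO 2. HET 1, where Cyp2g1 was at 10.07, was the lowest of the 6 for this receptor. Its range in hippocampus, 1.76 to 2.62, and in striatum, 1.64 to 2.67, overlapped that of the WT arrays here.

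The sequences before the start codons of these genes are shown beside that of Olr1102, a receptor that was highest in another tissue. They are RefSeq windows of the rat assembly GRCr8, 250 bases each, 5′ to 3′ on the strand of the gene: Olr1428 at chr10:43447519-43447768 (+), Olr655 at chr3:94957872-94958121 (+) and Olr1102 at chr7:131220947-131221196 (-). The gene models begin at the ATG that follows each window, so an unannotated upstream exon or intron may lie inside it. Capitals mark TAATTA, the core recognised by homeodomain factors such as Lhx2, a regulator of receptor genes in mice.
Olr1428: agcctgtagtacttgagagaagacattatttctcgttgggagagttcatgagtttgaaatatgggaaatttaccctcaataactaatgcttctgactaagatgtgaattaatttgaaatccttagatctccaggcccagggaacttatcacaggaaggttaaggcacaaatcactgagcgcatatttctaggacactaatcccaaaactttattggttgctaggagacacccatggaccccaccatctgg
Olr655: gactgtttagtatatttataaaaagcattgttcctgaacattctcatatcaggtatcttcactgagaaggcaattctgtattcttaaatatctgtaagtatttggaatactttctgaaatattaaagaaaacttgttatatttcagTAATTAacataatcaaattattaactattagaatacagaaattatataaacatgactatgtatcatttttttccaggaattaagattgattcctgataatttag
Olr1102: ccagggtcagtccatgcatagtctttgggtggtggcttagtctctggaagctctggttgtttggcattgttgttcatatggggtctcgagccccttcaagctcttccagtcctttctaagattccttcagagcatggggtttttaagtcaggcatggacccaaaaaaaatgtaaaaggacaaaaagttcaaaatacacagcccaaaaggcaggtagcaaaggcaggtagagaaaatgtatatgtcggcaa
TAATTA reads the same on both strands. It occurred once for Olr655, 104 bases before the start codon, and not in the windows of Olr1428 and Olr1102. Of 33469 rat windows of this length 4.86% held it, and of 1086 windows of odorant receptor genes 18.9% did. The core CCCNNGGG of Ebf factors, also the same on both strands, was in none of the 3 windows, in 10.8% of all and in 1.01% of those of receptor genes. The motifs were picked with these sequences in view. A window was found for 5 of the 10 genes.

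The share of the KO 2 signal that was seen on each heterozygous array was compared between receptors and mucosa genes. The mean of WT 1, WT 2 and KO 1 was subtracted as background, and the rest on HET 1 or HET 2 was divided by the rest on KO 2, on the linear scale. On HET 1 the ratio had a median of 0.222 over the sustentacular genes, with 0.489 for Cyp2g1 as the highest and 0.119 for Fmo2. The 4 gland genes that passed the step on KO 2 ranged from 0.327 for Bpifb3 through 0.105 for the mucin Muc5b to 0.0132 for Bpifa1. Cnga2, the cyclic nucleotide-gated channel of sensory neurons, had 0.279. For Olr655 it was -0.0801, and for the Olr1428 probe sets 17646180 and 17646178 it was -0.0159 and 0.0241. These receptors and Bpifa1 were at or near background on HET 1. On HET 2 the median over the sustentacular genes was 0.053, from -0.243 for Cyp2j4 to 0.129 for Sec14l3, with 0.103 for Cyp2g1. The gland genes had 0.0974 for Bpifa1, 0.0374 for Aqp5, 0.0108 for Bpifb3 and 0.00812 for Muc5b. Olr1428 had 0.103 and 0.110, within the range of the sustentacular genes. Olr655 had 0.281, though its value rests on 14.6 units on HET 2 and 38.4 on KO 2. There is 1 array of each kind, so none of these ratios has a replicate. Olr1428 and Olr655 entered by the rule through KO 2 alone, which can lower their ratios, whereas the sustentacular genes were listed as markers. No difference between receptors and mucosa genes is therefore read from the ratios.

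**Figure D2:**
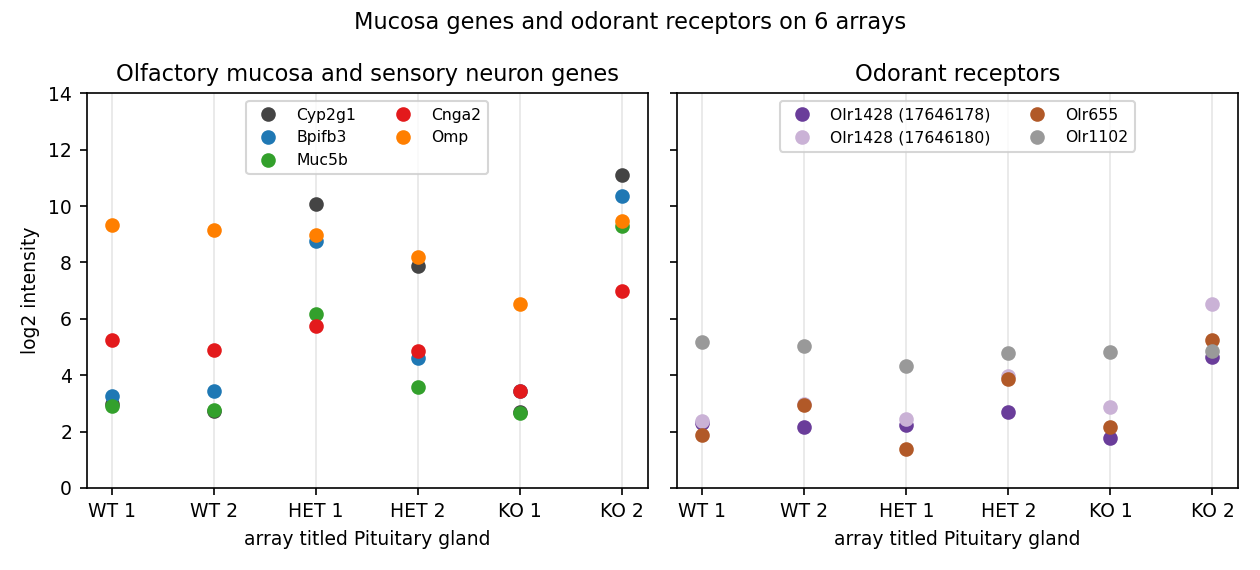
Log2 intensity (y axis) on the 6 arrays titled Pituitary gland (x axis), with 1 point per array, for 5 genes of olfactory mucosa or sensory neurons (left) and for 4 odorant receptor probe sets (right). Cyp2g1 stood at 10.07 on HET 1 and 11.10 on KO 2, while Olr1428 and Olr655 were raised on KO 2 and not above the higher WT array on HET 1.

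Olr1090 and Olr1092 are near each other in the genome, with Or10h1 between them, and were both highest of the 6 arrays on KO 2 and next on HET 1. Olr1090 read 3.07 and 2.82 on WT, 3.97 and 2.99 on HET, and 2.94 and 4.33 on KO. For Olr1092 the values were 4.19 and 3.92 on WT, 4.57 and 4.18 on HET, and 3.87 and 4.70 on KO. HET 1 ratios above background were 0.645 and 0.773. These ratios have no replicate, and Olr1090, like Olr1428 and Olr655, entered by the rule through KO 2 alone. No difference from the ratios of Olr1428 and Olr655 is therefore read. The differences between the arrays were small as well. KO 2 exceeded the higher WT array by less than 1 log2 unit for Olr1092, whose values in hippocampus reached 5.03.

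Olr1451 was at the threshold on the KO 2 and HET 2 arrays. It had 3.66 and 3.88 on WT 1 and WT 2, 3.87 and 4.34 on HET 1 and HET 2, and 2.94 and 4.44 on KO 1 and KO 2. The 5 arrays other than KO 1 differed by under 1 log2 unit. Close to it lies Olr1454, which stayed below the threshold with 1.84 and 2.20 on WT, 2.59 and 2.55 on HET, and 1.94 and 4.24 on KO.

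Receptor genes that lie beside the members were also read on KO 2. Among the 10 annotated genes on each side of Olr655, 14 receptor probe sets were measured, and 7 of them were more than 1 log2 unit above the WT mean on KO 2. Or4c105b, a close neighbour, had 1.60 and 2.96 on WT, 2.66 and 2.64 on HET, and 1.91 and 6.26 on KO. Or4c11 read 2.51 and 2.24 on WT, 1.32 and 3.67 on HET, and 1.99 and 5.93 on KO. Both were at their highest on KO 2, with Or4c11 next on HET 2 as for Olr655. Around Olr1428, 2 of 9 neighbours passed the step, namely Or2t48d at 4.78 and Or2t47d at 4.91 on KO 2. It was 0 of 6 around Olr1102, 0 of 12 around Olr551, 0 of 11 around Olr1731 and 2 of 13 around Olr1451. Olr1090 and Olr1092 had 3 measured neighbours each, of which 0 and 1 passed. Over all 1044 Or-named probe sets 13.5% passed the step. The neighbours of Olr655 are of family 4 (symbols in Or4). In that family 29.6% were over 1 log2 unit above both WT arrays on KO 2, a stricter count. Neighbouring receptors can be near-identical copies, and whether their RNA bound the same probes was not tested.

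The 63 Olr probe sets below the threshold had their highest value of the 24 arrays between 1.50 and 4.32, with a median of 3.11. Just inside the threshold were Olr1090 at 4.33, Olr954 at 4.37 and Olr36 at 4.43, and just outside it Olr1454 at 4.24, Olr1471 at 4.28 and Olr1088 at 4.32. Of these 63, 3 exceeded both WT arrays by more than 1 log2 unit on KO 2 and 3 on HET 1. Olr1564 did so on both, with 0.84 and 0.83 on WT, 3.37 and 0.93 on HET, and 1.50 and 3.53 on KO. Its level was low throughout. Over all 74, KO 2 was the highest of the 6 arrays for 26 (35.1%), compared with 16.2% of single-symbol probe sets.

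Receptors with the newer names gave similar shares. Of 1044 Or-named probe sets, 113 (10.8%) were over 1 log2 unit above both WT arrays on KO 2, 29 (2.78%) on HET 1, 10 (0.958%) on HET 2 and 4 (0.383%) on KO 1. For the 74 Olr probe sets the share was 9.46% on KO 2, 4.05% on HET 1 and 0 on HET 2 and KO 1. In both sets KO 2 came first and HET 1 next, as in the counts of sustentacular and gland genes. Farthest above WT on that array were Or12j5 at 6.55, Or4k15 at 6.79 and Or4k37 at 5.96, beside Olr1428 at 6.51. Single receptors differed between HET 1 and KO 2. Or4k49 read 4.97 on HET 1 and 2.16 on KO 2, whereas Or2l13 had 5.40 and 5.43. Class I receptors (families 51 to 56) passed the step on KO 2 for 3 of 125 probe sets, and class II receptors for 110 of 919. Family 4, to which the neighbours of Olr655 belong, passed the step for 40 of 135 probe sets on KO 2, 7 on HET 1 and 6 on HET 2. These groupings were made after the values had been seen.

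**Figure D3:**
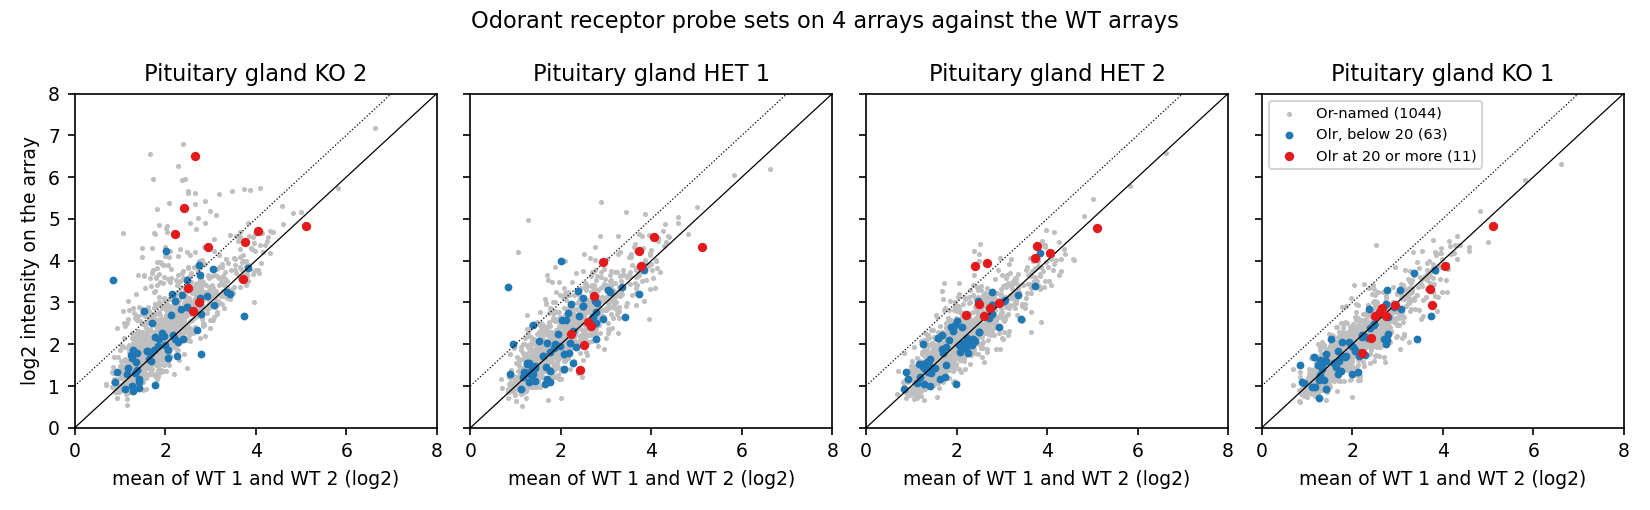
Log2 intensity on 1 array titled Pituitary gland (y axis) against the mean of WT 1 and WT 2 (x axis) for 1044 Or-named probe sets (grey), 63 Olr probe sets below an intensity of 20 (blue) and the 11 at or above it (red). The solid line marks equality and the dotted line 1 log2 unit above it, which 13.5% of Or-named probe sets passed on KO 2. More than 1 log2 unit above both WT arrays, a stricter count, were 10.8% on KO 2 and 2.78% on HET 1.

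Of the genes that serve the receptors in the sensory neuron, few passed the step above WT on KO 2, namely 1 of 4 trafficking genes (Rtp1) and 1 of 7 regulators of receptor choice (Ebf2). Rtp1, a chaperone that carries odorant receptors to the cell surface, read 4.73 and 4.44 on WT, 5.51 and 4.85 on HET, and 4.08 and 6.34 on KO. Ebf2, a transcription factor of olfactory neurons, had 3.99 and 3.31 on WT, 4.74 and 3.03 on HET, and 3.58 and 6.07 on KO. Both were highest on KO 2 and next on HET 1. The trafficking genes Reep1 and Rtp2, at 7.82 and 3.21 on KO 2, and Kdm1a, a histone demethylase of receptor choice, at 8.44, lay below both WT arrays there. Omp, the marker of mature sensory neurons, was at 9.32 and 9.15 on WT, 8.97 and 8.20 on HET, and 6.54 and 9.48 on KO, so it was lowest on KO 1 and no higher on HET 1 than on WT. Of 7 measured transduction genes, 2 passed the step above WT on KO 2 and 2 on HET 1, and 3 fell by more than 1 log2 unit below both WT arrays on KO 1. Among trace amine receptors (16 genes), 0 passed the step and 0 reached an intensity of 20 on these arrays, which says little for so few genes. Of vomeronasal receptors (142 genes), 2 passed the step on HET 1 and 1 on KO 2. An intensity of 20 was reached by 1 of them, on KO 2 (Vom1r56 at 4.34).

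In the comparison of KO with WT at the arrays titled Pituitary gland, limma called 0 of the 11 probe sets (0.912% of 10853 tested), and nothing is read from this count because the rule used these arrays. Olr1428 (17646180) had a mean of 4.69 in KO and 2.67 in WT, a difference of 2.02 (SE 0.805, n = 2 and 2, adjusted p = 0.659, limma), with 1 unadjusted p under 0.05, its own 0.0237. Without KO 1, 2 probe sets were called, both of Olr1428, but that fit sets KO 2 alone, the array through which this gene was chosen, against WT, with the spread taken from the other groups, and nothing is read from it. For HET against WT the count was also 0 (0% called over all), with 1 unadjusted p under 0.05, for Olr1102 (4.56 in HET, 5.11 in WT, difference -0.55, SE 0.227).

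For 6 of the 11 probe sets the highest array was one of hippocampus or striatum. Or-named receptors showed a like difference between tissues at an intensity of 20. Of 1044, 27 to 42 reached it on the hippocampus and striatum arrays and 7 to 14 on those titled Olfactory bulbs. It was 10 to 12 on Pituitary gland WT 1, WT 2, KO 1 and HET 2, against 25 on HET 1 and 57 on KO 2. Of all single-symbol probe sets, 59.3 to 61.3% reached it on hippocampus and striatum arrays and 60.7 to 61.8% on the other 12. Low on the scale the arrays differed, however. A value of 4.36 was at or above 50.1% of all probe sets on Hippocampus WT 2, and 3.95 was at or above 50.2% on Olfactory bulbs KO 1. The part of this shift in the counts was not tested. Olr1102 was the most widely detected of the 11 and reached an intensity of 20 on 22 of the 24 arrays and on all 8 of spleen and BMDM. In hippocampus it read 5.95 and 5.99 on WT, 6.11 and 6.19 on HET, and 5.98 and 6.78 on KO. In striatum the values were 5.63 and 5.97 on WT, 6.19 and 6.15 on HET, and 5.73 and 6.06 on KO. All 12 of these arrays lay above all 12 of the other 2 tissues, which ranged from 4.12 to 4.86 (titled Olfactory bulbs) and from 4.33 to 5.18 (titled Pituitary gland). Hippocampus and striatum overlapped each other. Olr1102 also stood higher in both by the share of all probe sets at or below it, at 65.5% or more against 61.4% or less.

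Olr1092, Olr1731, Olr954 and Olr36 likewise had higher medians in hippocampus and striatum than on the other 12 arrays. Olr1731, Olr954 and Olr36 reached the threshold only on hippocampus or striatum arrays, so the rule in part fixed this order for them. Ranks, as the share of all probe sets at or below a value, did not all keep the order of the medians. By rank Olr1731 was at 41.4% or more in hippocampus. It was at 40.7% or less on the arrays titled Olfactory bulbs and at 39.2% or less on those titled Pituitary gland. Olr1092 ran from 42.6 to 58.1% in hippocampus and from 47.9 to 56.2% on the arrays titled Pituitary gland. Olr1731, a pseudogene in RefSeq, had 3.77 and 3.99 on WT, 4.10 and 4.67 on HET, and 4.07 and 5.22 on KO in hippocampus, with a median of 4.09 there against 3.69 in striatum and 2.51 and 2.61 on the arrays titled Olfactory bulbs and Pituitary gland. For Olr36 the highest value of the latter 2 tissues, 2.83, was below the lowest of hippocampus, 3.03, and of striatum, 3.23. By rank its ranges met, at 31.9% on Olfactory bulbs WT 2 and 31.8% on Hippocampus KO 2. Olr954, for which the RefSeq table holds no entry under the array's gene ID, had medians of 3.84 and 4.04 in hippocampus and striatum and of 2.85 and 2.93 in the other 2. Olr1092 ranged from 3.82 to 5.03 in hippocampus and overlapped every other tissue. An intensity of 20 was reached on 2 arrays by Olr1731 and on 1 by Olr954 and by Olr36, against 10 by Olr1092.

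In these tissues limma called no genotype difference among the 11. The rule used these arrays too, and Olr1731, Olr954 and Olr36 entered through some of them only, so the counts are a description. For KO against WT limma called 0 of 11 in hippocampus (0.599% called over all probe sets), with 1 unadjusted p under 0.05, for Olr36 (3.14 in KO, 3.72 in WT, difference -0.58, SE 0.260, adjusted p = 0.567). It called 0 in striatum (0.682% over all) and 0 at the arrays titled Olfactory bulbs (1.78% over all), with 0 unadjusted p under 0.05 in either. For Olr1102 the 95% interval of the KO minus WT difference was -0.08 to 0.89 in hippocampus and -0.39 to 0.58 in striatum, so changes of over 1 log2 unit lay outside it. For Olr1428 (17646180) the interval in hippocampus, -2.80 to 0.62, was wide. The F test for a genotype effect that differs between the 4 tissues called none of the 11 (0.147% over all). Its lowest unadjusted p in this F test, 0.0660 (adjusted p = 0.640), was that of Olr1428 (17646180). This probe set entered only through Pituitary gland KO 2, and nothing is read from the F test.

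**Figure D4:**
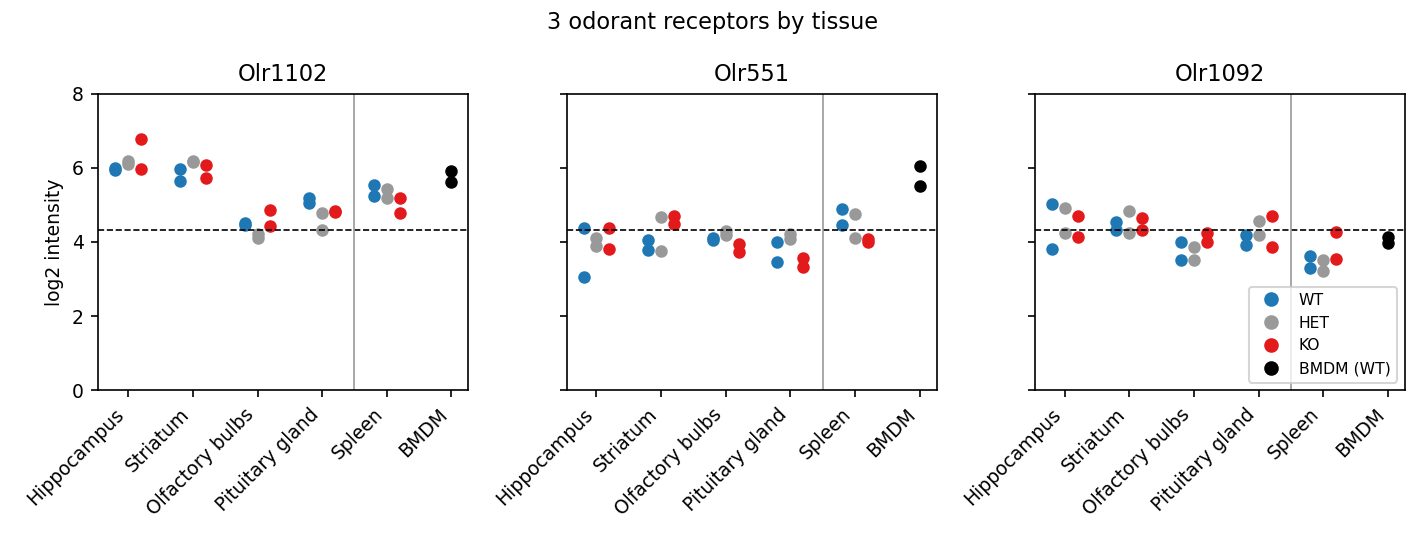
Log2 intensity (y axis) of Olr1102, Olr551 and Olr1092 on each array by tissue title (x axis), coloured by genotype, with the intensity of 20 as a dashed line and the separately normalized spleen and BMDM arrays right of the grey line. Olr1102 lay between 5.63 and 6.78 in hippocampus and striatum, and Olr551 stood at 5.52 and 6.03 in BMDM, above all spleens.

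Olr551 was higher in macrophages than in spleen. It read 4.46 and 4.89 on WT spleens, 4.10 and 4.75 on HET, 4.08 and 3.99 on KO, and 6.03 and 5.52 on the BMDM arrays, so BMDM lay above all spleens. In the 24 arrays it ranged from 3.07 to 4.70, with 5 arrays at an intensity of 20, all in hippocampus or striatum. BMDM exceeded WT spleen by 1.10 (means 5.78 and 4.68, SE 0.280, adjusted p = 0.0276, limma, n = 2 and 2), in a comparison in which 43% of 9570 probe sets were called, 18.5% as higher in BMDM. The call was lost on leaving out any one of the 4 arrays, at 0.84 to 1.36. Cell type, culture with CSF1, sex and strain differ together between BMDM and spleen and cannot be told apart. Olr1102 read 5.91 and 5.61 in BMDM against 5.55 and 5.23 in WT spleen, a difference of 0.37 (SE 0.262, adjusted p = 0.295, limma). The other 9 probe sets stayed below an intensity of 20 on all 8 arrays.

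Between KO and WT spleens, 0 of the 2 probe sets tested were called (0.0104% called over all), with 0 unadjusted p under 0.05. The difference for Olr551 was -0.64 (4.03 in KO, 4.68 in WT, SE 0.280, adjusted p = 0.751, limma), and its KO arrays, 4.08 and 3.99, both lay below the WT arrays. The KO 2 spleen, which carried Prss16, read lower than KO 1, and the part of that tissue in the values was not tested.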

How the data were processed

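The series holds 32 arrays of the Affymetrix type Rat Gene 2.1 ST. The authors normalized the arrays with RMA in R/Bioconductor and deposited intensities on the linear scale, and versions are not given in the sources used here. Exact values were shared by pairs within the 24 brain and pituitary arrays and within the 8 spleen and BMDM arrays but by at most 1 across, and tests were run within each set on log2 values. By the platform annotation 14824 probe sets carried a single symbol, and the 829 with several were not named. The receptors and gene lists were chosen with earlier results of these data known. Named receptors are all members by their level, the probe sets around the threshold and the listed marker genes, while neighbours, Or-named receptors and motifs were added after values were seen. limma 3.58.1 in R 4.3.3 fitted 12 groups on the 24 arrays (10853 probe sets with an intensity of 20 on at least 1) and 3 groups on the 6 WT, KO and BMDM arrays of the spleen set (9570), with Benjamini-Hochberg adjustment at 0.05, and was tested on simulated data. Alternatives were other thresholds and filters, repeated quantile normalization, a trend with robust variance, the replicate number as a block, and leaving out each array. Arrays carry no counts, so their number, 2 per group, limits precision. Python 3.11.15 with numpy 2.4.6, pandas 2.3.3 and matplotlib 3.10.9 was used for the rest.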

Additional observations from a re-analysis of the deposited data

Results flagged for a closer look

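Signal above the WT level was also found in probe sets that the report leaves out because the annotation gives them several receptor symbols. Of 43 such probe sets with an Olr symbol, 10 reached an intensity of 20 on at least 1 of the 24 arrays, and 4 did so on Pituitary gland KO 2 at more than 1 log2 unit above both WT arrays. Probe set 17612933 read 6.39 on KO 2 against 2.98 and 2.99 on WT 1 and WT 2, and probe set 17763716 read 5.11 against 2.96 and 3.12. The other two, 17842221 at 4.90 and 17843223 at 5.22, had values up to 4.47 and 4.58 in the other tissues. None of the 43 did so on HET 1, HET 2 or KO 1. Which receptor they measured was not tested.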

How the results depend on the processing

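Of 73 recomputed counts of called receptors, 67 were within 1.5 times the reported count. Most of these set 0 beside 0 in comparisons with few calls over all probe sets, so the agreement says little. For BMDM against WT spleen, the only comparison with a call, 2 of 7 agreed. For KO against WT at the arrays titled Pituitary gland, leaving out 1 array gave 0 to 2 calls, the 2 being without KO 1, a fit that leaves only KO 2, the array through which Olr1428 was chosen, and takes its spread from the other groups. There the difference for Olr1428 was 3.84 (17646180) and 2.42 (17646178). For BMDM against WT spleen, a contrast added after the data had been seen, leaving out 1 array gave 0 calls and no filter gave 2. The HET minus WT difference on leaving out 1 array ran from -1.03 (without HET 2) to 1.45 (without HET 1) for Olr655, with -0.32 without WT 1, and from -0.23 (without HET 2) to 1.28 (without HET 1) for Olr1428 (17646180). A fit without the Pituitary gland arrays KO 2, HET 1 and HET 2, also added later, called 0 in hippocampus, striatum and the arrays titled Olfactory bulbs.

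The number of receptor probe sets was 34 at a threshold of 10, 2 at 50 (Olr1428 and Olr1102) and 10 with repeated normalization. At 50 the medians on WT 1, WT 2, HET 2, KO 1 and KO 2 became 3.77, 4.01, 4.37, 3.84 and 5.68. The median ratio above background over all receptors rests mostly on probe sets near the background. For HET 1 it was 0.0241, with the other tissues as background 0.588. For HET 2 it was 0.209, then 0.301, and 0.103 for receptors at 50 on KO 2. With the other tissues as background the HET 1 ratio was 0.165 for sustentacular genes, 0.186 for gland and 0.612 for transduction genes, and the HET 2 ratio -0.0604, 0.0195 and 0.175. At 50 on KO 2 the HET 2 ratio was 0.0241 for gland and -0.42 for transduction genes.

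Replicate numbers only name samples. Within each of the 4 tissues, deviations of same-numbered samples of different genotypes correlated between -0.27 and 0.44. Whether same-numbered samples of different tissues came from the same rat was not tested. The replicate block changed no call: 0 receptors were called for KO against WT in each tissue and for HET against WT, and 1 for BMDM against WT spleen. No detection or background measure of the probe sets was used here, so low receptor levels are not shown to be signal.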
